A study of Mus musculus with 6 samples.

Results

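Transcripts of 10 genes that fat cells make were followed in whole lung of 6 mice. The genes were chosen by name, and each was found by its symbol among the 25965 genes listed: Adipoq, Lep, Retn, Cfd, Plin1, Plin4, Cidec, Cidea, Car3 and Fabp4. All mice were chimeras of the genotype ZBTB46 DTR, made so that diphtheria toxin removes classical dendritic cells, which use the transcription factor Zbtb46. All 6 breathed 10% oxygen for 7 days. The 3 DT mice received diphtheria toxin at 40 ng per g 1 day before hypoxia and 8 ng per g every 3 days after that (3 doses in all), and the 3 PBS mice received vehicle. The sources used here do not give the donor and host of the chimeras, the cells the host still had, or the age and sex of the mice. No group without the receptor or without hypoxia was included, so loss of the targeted cells and other actions of the toxin cannot be told apart.

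White fat cells store triglyceride in a single large droplet and release hormones into the blood. Perilipins and CIDE proteins coat and enlarge the droplet, lipases open it when energy is needed, and adiponectin, leptin and resistin report on the fat store. The lung parenchyma has few such cells. Fat lies around the hilum, the large airways and vessels and in the mediastinum, while other lung cells (lipofibroblasts, alveolar macrophages, capillary endothelium) use part of the same set of genes. Among the members, Adipoq, Plin1 and Lep are the most closely tied to the fat cell, and Fabp4 is also a gene of capillary endothelium and macrophages.

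Values are on a reads-per-million scale (RPM), and libraries held 16766382 to 19084658 reads. All 10 members passed the filter on low values (at least 0.538 RPM in 3 libraries) and were tested with 16708 genes in all, by limma on log2(RPM + 1). The deposited values do not rank genes by abundance. Sftpc, a surfactant gene whose transcript is known to be among the most abundant in lung, averaged only 8.91 RPM and ranked 12662 of 25965. Only 3 of 25035 genes exceeded 1 read per exonic base, and the members reached between 0.0203 (Lep) and 0.531 (Car3) reads per base of their first-numbered transcript in the library where each was highest. Whether values near the upper end of this range still follow transcript number was not tested.

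The promoters of Adipoq, Plin1, Retn and Lep are shown because these 4 genes were among the 5 members that varied most across mice. Each window runs from 250 bases before to 50 bases after the start site (RefSeq, GRCm38.p6, the mm10 assembly), 5′ to 3′ on the strand of the gene. Capitals mark TTGCNNAA, a pattern that C/EBP factors, regulators of fat cell genes, can bind.
Adipoq, chr16:23146286-23146585, plus strand: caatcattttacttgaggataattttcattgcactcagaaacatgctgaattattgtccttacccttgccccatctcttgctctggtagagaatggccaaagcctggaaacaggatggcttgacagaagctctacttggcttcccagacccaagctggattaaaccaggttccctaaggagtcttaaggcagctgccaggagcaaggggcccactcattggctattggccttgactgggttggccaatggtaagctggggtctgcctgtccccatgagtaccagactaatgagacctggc
Plin1, chr7:79732727-79733026, minus strand: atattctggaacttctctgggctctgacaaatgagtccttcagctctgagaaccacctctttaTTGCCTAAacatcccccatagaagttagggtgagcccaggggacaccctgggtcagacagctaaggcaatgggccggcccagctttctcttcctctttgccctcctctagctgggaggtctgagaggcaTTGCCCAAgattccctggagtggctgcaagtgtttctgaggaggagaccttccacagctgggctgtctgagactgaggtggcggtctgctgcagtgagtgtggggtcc
Retn, chr8:3655520-3655819, plus strand: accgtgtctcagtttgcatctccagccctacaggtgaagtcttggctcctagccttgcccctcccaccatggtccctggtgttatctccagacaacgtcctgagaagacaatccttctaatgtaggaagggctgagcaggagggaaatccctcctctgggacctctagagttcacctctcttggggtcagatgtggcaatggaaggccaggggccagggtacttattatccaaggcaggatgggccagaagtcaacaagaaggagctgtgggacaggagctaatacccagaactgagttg
Lep, chr6:29059971-29060270, plus strand: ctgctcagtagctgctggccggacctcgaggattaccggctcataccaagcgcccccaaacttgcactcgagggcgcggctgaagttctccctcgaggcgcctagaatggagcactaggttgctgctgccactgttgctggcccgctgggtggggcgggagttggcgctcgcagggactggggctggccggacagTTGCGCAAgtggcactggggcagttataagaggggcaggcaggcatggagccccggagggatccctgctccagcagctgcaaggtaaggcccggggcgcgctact
Windows of 7 of the 10 members were searched, and statements on member windows cover these only. The 4 patterns searched on both strands were TTGCNNAA, the full palindrome TTGCGCAA (a special case of the first), the nuclear receptor pattern DR1 (AGGNCA repeated after a spacer of 1 base) and the TATA box TATAAA. No other overlap between the patterns was found in member windows. TTGCNNAA occurred in Plin1 at 187 and 58 bases and in Lep at 55 bases before the start site, counted to the first letter of the match, and in 1 of the 2 windows of Cidec. The Lep match was the full palindrome. TTGCNNAA was present in 10.8% of all 32851 windows of this length and the palindrome in 0.183%. DR1 and TATAAA matched no member window, against 0.381% and 13.6% of all windows. Only exact matches were counted, so a near variant such as TATAAG in the Lep window was not.

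None of the 10 genes passed the test between the DT and PBS mice. In all 10, the difference between the group means was smaller than the larger of the 2 group SDs. For 9 of the 10, the 3 highest values were those of PBS mouse 2, PBS mouse 3 and DT mouse 2, an order seen in 4.51% of all tested genes. This set of libraries was noted after the values were seen. DT mouse 2 lay above both other DT mice in all 10, and PBS mouse 1 lay below both other PBS mice in 9. In bulk tissue, fewer cells of a type and less RNA per cell cannot be told apart.

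**Figure D1:**
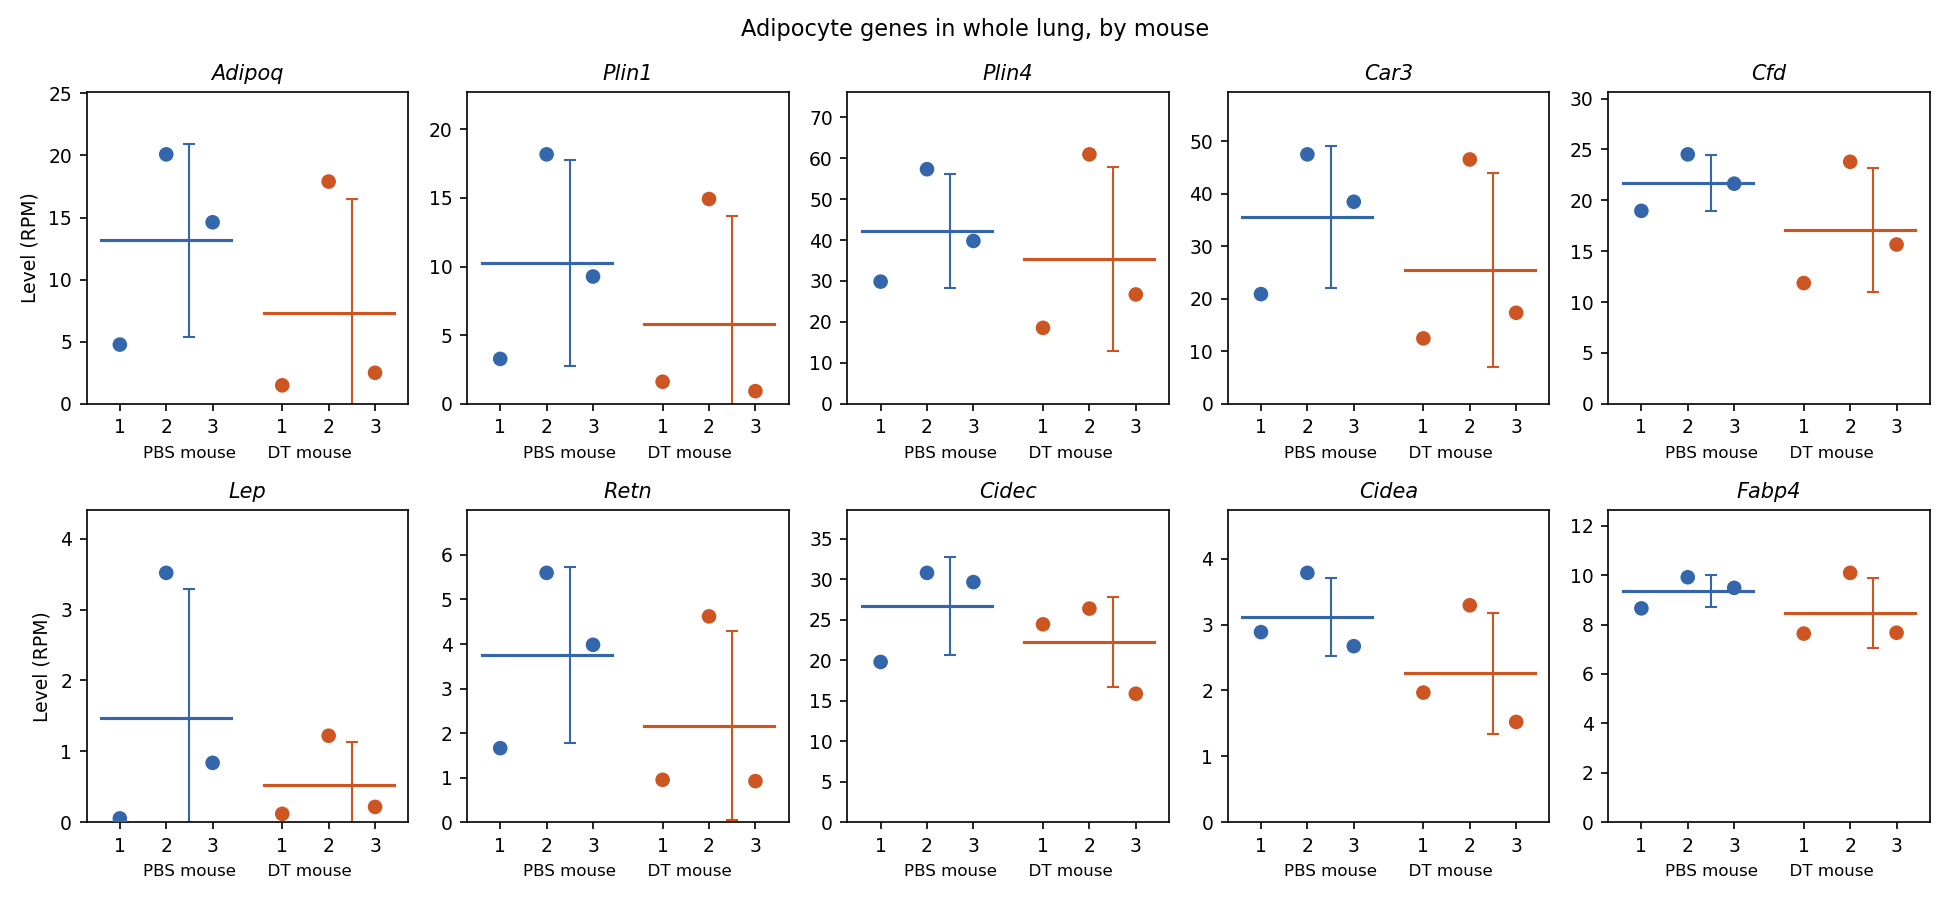
Level of each member in RPM (vertical axis, from 0) in PBS mice 1 to 3 (blue) and DT mice 1 to 3 (orange). Points are mice, horizontal lines group means and vertical bars the SD (n = 3), cut at 0. PBS mouse 2 and DT mouse 2 are high in most panels, and the groups overlap in every panel.

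Adipoq encodes adiponectin, a hormone made almost only by fat cells (ENSMUSG00000022878, mm10 chromosome 16, 23146536 to 23158028). It stood at 4.77, 20.1 and 14.6 RPM in PBS mice 1 to 3 and at 1.49, 17.9 and 2.50 RPM in DT mice 1 to 3. DT mouse 2 was thus at the level of the high PBS mice, while DT mice 1 and 3 lay below all PBS mice. The means were 13.2 ± 7.76 RPM (SD, n = 3) in PBS and 7.30 ± 9.19 in DT mice. The log2 fold change, here and below the difference of the mean log2(RPM + 1) values and not the ratio of the mean RPM, was -1.18 ± 0.75 (SE; 95% interval -2.90 to 0.55; limma, adjusted p = 0.705). Within the DT group the highest value was 12.0 times the lowest. Only 0.138% of tested genes had a wider range over the 6 libraries.

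Lep, which encodes the satiety hormone leptin (ENSMUSG00000059201, chromosome 6, 29060220 to 29073877), was the member with the lowest mean RPM. It was read 1, 66 and 16 times in PBS mice 1 to 3 and 2, 23 and 4 times in DT mice 1 to 3, at most 3.52 RPM. A few reads per library cannot resolve a fold change between the low mice. The log2 fold change was -0.51 ± 0.50 (-1.65 to 0.63; adjusted p = 0.826), and it turned to 0.055 without PBS mouse 2. Retn, which encodes resistin (ENSMUSG00000012705, chromosome 8, 3655770 to 3660110), stood at 1.66, 5.60 and 3.98 RPM in PBS and 0.954, 4.62 and 0.925 RPM in DT. The same 3 mice were high. Its log2 fold change was -0.68 ± 0.47 (-1.75 to 0.38; adjusted p = 0.725).

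Cfd encodes adipsin, the complement protease factor D that fat cells secrete (ENSMUSG00000061780, chromosome 10, 79890853 to 79892656). It varied less, with 19.0, 24.5 and 21.6 RPM in PBS and 11.9, 23.8 and 15.7 RPM in DT. The means were 21.7 ± 2.77 and 17.1 ± 6.09 RPM, and the log2 fold change was -0.37 ± 0.22 (-0.87 to 0.13; adjusted p = 0.675). DT mouse 2 lay inside the PBS range and DT mice 1 and 3 below it.

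Of the droplet coat genes, Plin1 encodes the perilipin that guards the droplet against lipases (ENSMUSG00000030546, chromosome 7, 79721164 to 79732776). It stood at 3.27, 18.2 and 9.27 RPM in PBS and 1.61, 14.9 and 0.925 RPM in DT. Its log2 fold change was -1.13 ± 0.80 (-2.98 to 0.71; adjusted p = 0.740). The highest library was 19.7 times the lowest, the widest ratio among the members with more than 3 reads in every library. Plin4, a perilipin of fat and muscle (ENSMUSG00000002831, chromosome 17, 56100591 to 56109802), stood at 29.8, 57.3 and 39.8 RPM in PBS and 18.6, 60.9 and 26.7 RPM in DT. DT mouse 2 was the highest of the 6, and the log2 fold change was -0.38 ± 0.39 (-1.28 to 0.53; adjusted p = 0.843).

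Cidec, whose protein fuses droplets (ENSMUSG00000030278, chromosome 6, 113424634 to 113435760), was read at 19.8, 30.8 and 29.7 RPM in PBS and 24.5, 26.4 and 15.9 RPM in DT. Unlike Adipoq and Plin1, it was higher in DT mouse 1 than in PBS mouse 1. Its log2 fold change was -0.26 ± 0.21 (-0.75 to 0.23; adjusted p = 0.778). Cidea, a relative used mainly by brown fat (ENSMUSG00000024526, chromosome 18, 67343564 to 67367794), stood at 2.88, 3.78 and 2.67 RPM in PBS and 1.97, 3.29 and 1.52 RPM in DT. It was the only member whose third-highest value was that of PBS mouse 1. The log2 fold change was -0.36 ± 0.22 (-0.86 to 0.14; adjusted p = 0.686). Cidea overlaps a listed gene on the other strand by 540 bases, B430212C06Rik, which averaged 3.33 reads, and Plin4 overlaps Hdgfrp2 by 6 bases. The sources used here do not say whether counting used strand.

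Car3, a carbonic anhydrase abundant in fat cells and slow muscle (ENSMUSG00000027559, chromosome 3, 14863538 to 14872351), stood at 20.9, 47.5 and 38.5 RPM in PBS and 12.5, 46.6 and 17.4 RPM in DT. The high and low mice were those of Adipoq, in the same order. The log2 fold change was -0.61 ± 0.46 (-1.66 to 0.43; adjusted p = 0.749). Fabp4, the fatty acid carrier of fat cells and capillary endothelium (ENSMUSG00000062515, chromosome 3, 10204347 to 10208576), was nearly level, at 8.65, 9.91 and 9.48 RPM in PBS and 7.63, 10.1 and 7.67 RPM in DT. Its highest library was 1.32 times its lowest, and its log2 fold change was -0.14 ± 0.13 (-0.45 to 0.17; adjusted p = 0.827).

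Of the 10 members, 0 passed an adjusted p of 0.05 (limma; 0 at an unadjusted p under 0.05, and 0 by limma-voom on recovered reads). Over all tested genes 0.281% passed, 0.275% as higher and 0.00599% as lower in DT, and 9.03% had an unadjusted p under 0.05. The groups overlapped in all 10 members, against separate groups in 14.4% of tested genes. All 10 fitted differences were below 0, as were 49.6% over all tested genes. Most members vary together within groups, so these 10 signs are not 10 separate observations. The median log2 fold change was -0.44 against 0.00063 over all tested genes. The intervals of 6 members (Adipoq, Plin1, Retn, Car3, Lep and Plin4) reach below -1 and all 10 reach above 0, so these data do not show that the groups are alike.

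The within-group spread set the members apart from most genes. Their residual SD on the log2(RPM + 1) scale had a median of 0.735, against 0.0963 over all tested genes. It was 1.40 for Plin1, 1.31 for Adipoq, 0.840 for Lep, 0.792 for Car3 and 0.785 for Retn. For each of these 5, fewer than 0.5% of tested genes had a larger one, between 0.0359% for Plin1 and 0.491% for Retn. Fabp4, at 0.160, was exceeded by 29.7% of tested genes. The range over the 6 mice had a median of 1.72 in members and 0.277 over all tested genes.

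The estimate for most members hung on DT mouse 2, a mouse singled out after the values were seen. Without it, the log2 fold change of Adipoq was -2.07, that of Plin1 -2.08, that of Retn -1.19, that of Car3 -1.15 and that of Plin4 -0.85. The median over the members was then -0.83, and 0 of 10 were lower by the test (limma; 7 at an unadjusted p under 0.05), with adjusted p down to 0.168. In the same fit 0.539% of all tested genes were lower in DT. An unadjusted p under 0.05, in either direction, was reached by 1603 of the 16708 tested genes. DT mice 1 and 3 lay below every PBS mouse in 8 of the 10 members, against 11.7% of all tested genes. Without DT mouse 1, in contrast, the log2 fold change of Adipoq was -0.61 and that of Plin4 -0.015, and without DT mouse 3 that of Plin1 was -0.55.

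**Figure D2:**
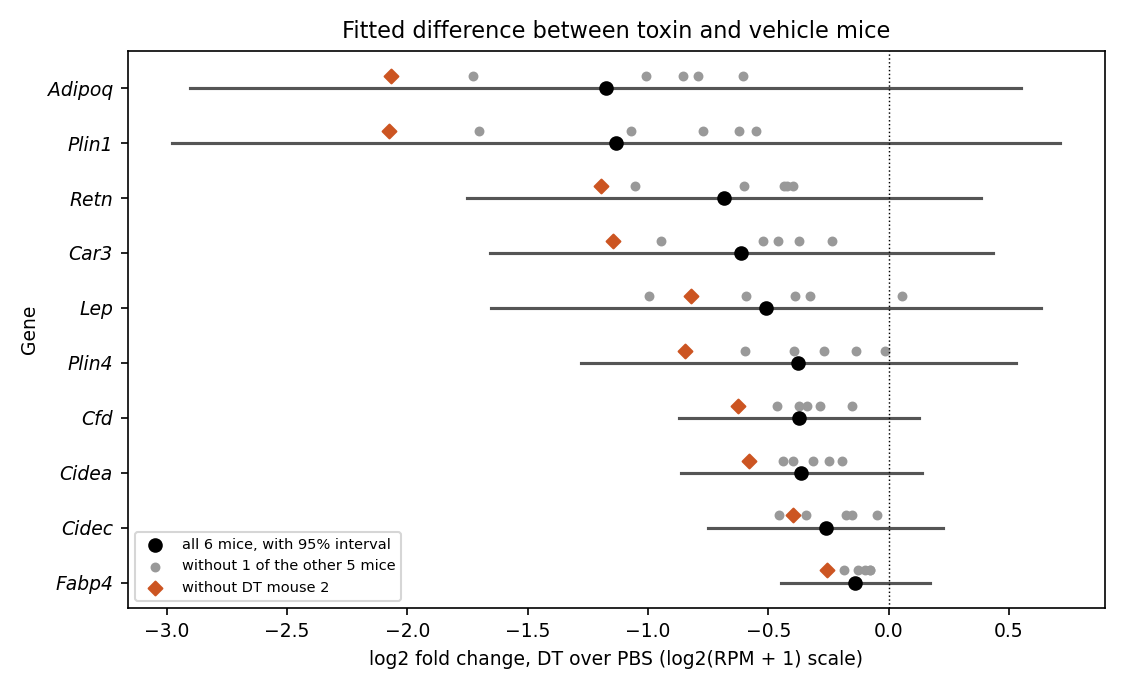
Log2 fold change of DT over PBS for each member (horizontal axis, log2(RPM + 1) scale). Black points are fits to all 6 mice with 95% intervals, grey points fits without 1 of 5 mice, and orange diamonds fits without DT mouse 2. All 10 intervals include 0, and the Adipoq diamond lies at -2.07.

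Of the ratios to Adipoq within a library, those of Retn and Plin1 had the smallest spread. The Retn to Adipoq ratio ran from 0.258 to 0.640 and the Plin1 to Adipoq ratio from 0.370 to 1.08, while Adipoq itself spanned 13.5-fold. The Car3 to Adipoq ratio was 2.37 to 2.63 in the 3 high mice and 4.38, 8.36 and 6.93 in PBS mouse 1, DT mouse 1 and DT mouse 3. The ratios of Cidec and Fabp4 to Adipoq moved 11.1-fold and 10.4-fold, with their highest values in DT mouse 1, where Adipoq was lowest. These are levels in RPM, without a correction for length.

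Per kilobase of the first-numbered transcript, the mean PBS level was highest for Cfd, at 23.6 RPM per kb, and Car3, at 21.2. Cidec followed at 15.7, Fabp4 at 10.4, Adipoq at 10.2, Plin4 at 7.35, Plin1 at 5.35, Retn at 4.29, Cidea at 2.79 and Lep at 0.451 RPM per kb. Of the 9 neighbouring pairs in this order, 2 differed by more than the larger SD of the pair, Cidec above Fabp4 and Cidea above Lep. Since the deposited values do not rank genes by abundance, this is an order of read density.

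Genes outside the member list with a pattern most like that of Adipoq were sought by the root mean square difference of centred log2(RPM + 1) values over the 6 libraries, among 15890 other genes with a mean of at least 1 RPM. Plin1 was the nearest of all (0.31), with Car3 at rank 9 (0.51) and Retn at rank 10 (0.51). Plin4 ranked 56, Cfd 198, Cidea 294, Cidec 423 and Fabp4 723. Lep had a mean under 1 RPM and was not ranked.

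The 10 nearest genes outside the list were Tmem45b (0.38), Sost (0.46), Mylk4 (0.47), A530016L24Rik (0.47), Kcnj3 (0.48), Pck1 (0.50), Txlnb (0.50), Nppa (0.53), Synpo2l (0.53) and Mybpc3 (0.53). Pck1, the enzyme with which fat cells make glycerol for triglyceride, stood at 0.388, 3.94 and 7.65 RPM in PBS and at 0, 8.81 and 0.544 RPM in DT. Nppa, which encodes the atrial natriuretic peptide, stood at 3.00, 8.63 and 14.4 RPM in PBS and 0.537, 10.9 and 0.0544 RPM in DT. Kcnj3 encodes an atrial potassium channel, and Mybpc3 encodes the cardiac myosin-binding protein. Mybpc3 stood at 28.9, 32.8 and 44.7 RPM in PBS and at 7.22, 37.1 and 8.27 RPM in DT. Kcnj3 stood at 18.2, 23.6 and 30.9 RPM in PBS and at 5.13, 29.0 and 5.06 RPM in DT. Nppa, Kcnj3 and Mybpc3 were low in DT mice 1 and 3, as Adipoq was. These 3 are not a count of all heart or muscle genes among the 10. Mylk4, Txlnb and Synpo2l had the same profile. In DT mice 1 and 3 they stood at 4.77 and 5.87 RPM (Mylk4), 7.575 and 11.3 (Txlnb) and 6.32 and 8.87 (Synpo2l). For each of these genes PBS mouse 1 was the lowest of its group, and lay above DT mice 1 and 3.

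**Figure D3:**
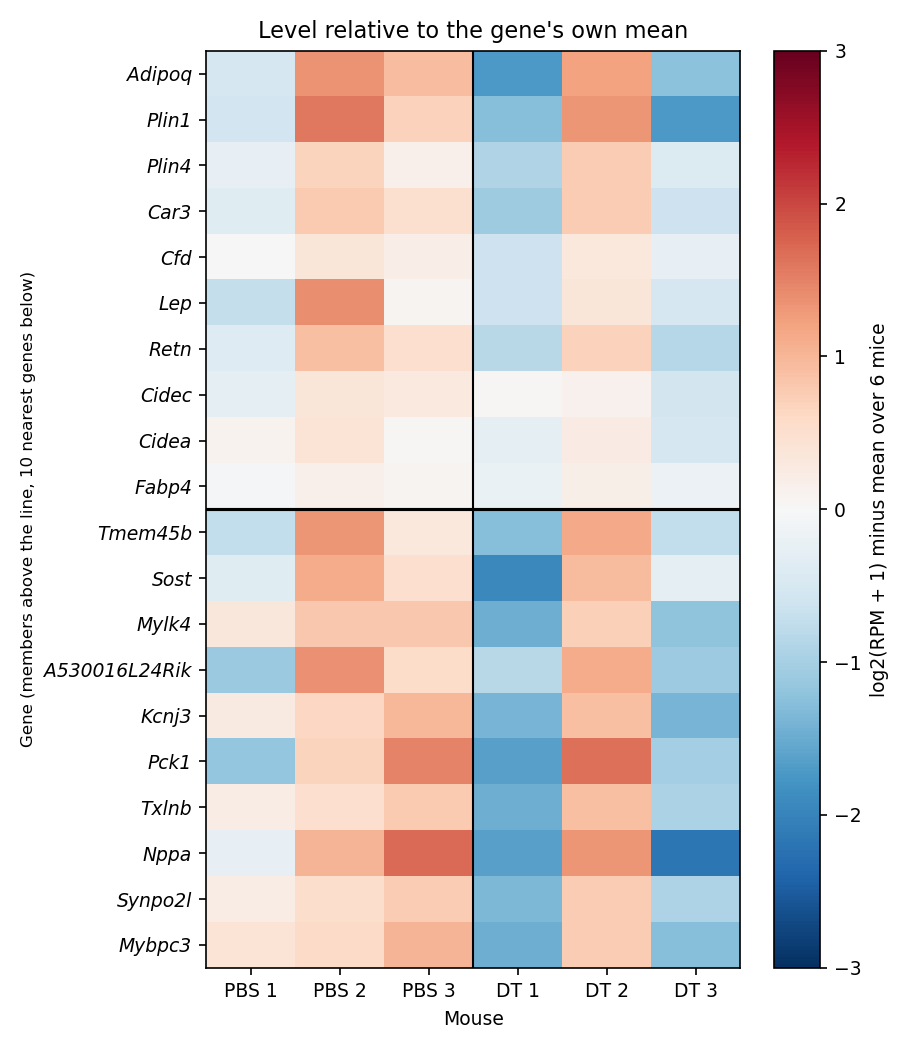
Heat map of log2(RPM + 1) minus the mean of each gene over the 6 mice (colour scale), for the 10 members above the line and the 10 nearest genes to Adipoq below it. Columns are mice; red is above and blue below the gene's own mean. Plin1 and Retn follow Adipoq in all 6 columns, while Kcnj3 and Mybpc3 part from it in PBS mouse 1.

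Of the genes in the lists that follow, 0 rose or fell by the test, apart from Prg4. In 6 lists of other genes tied to the fat cell, with 55 genes tested, 32 had a fitted difference below 0 and the median log2 fold change was -0.06. PBS mouse 2, PBS mouse 3 and DT mouse 2 were the 3 highest in 13 of these 55 genes (23.6%), against 4.51% of all tested genes. Genes of a list that are neither past the threshold nor among its 3 highest in mean RPM were named after their values were seen. Among 10 regulators and receptors, 0 passed, and the median log2 fold change was -0.06. Those highest in mean RPM were Insr (0.06 ± 0.04), Cebpa (0.01 ± 0.06) and Npr3 (-0.06 ± 0.08). Pparg, the master regulator of fat cell formation, was at 19.4, 21.5 and 23.5 RPM in PBS and 23.9, 17.6 and 20.7 in DT. Adrb3, the beta-3 adrenergic receptor that triggers lipolysis in mouse fat, stood at 29.7, 34.1 and 27.6 RPM in PBS and 18.7, 24.1 and 21.5 RPM in DT. Its groups did not overlap, but it missed the threshold over all genes (-0.49 ± 0.11, adjusted p = 0.213).

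Among 9 genes of lipolysis and the droplet, 0 passed, with Mgll at 0.00 ± 0.05, Lipe (hormone-sensitive lipase) at 0.01 ± 0.06 and Abhd5 at -0.01 ± 0.05 on the log2 scale. Plin2, the perilipin of most cell types, stayed between 44.6 and 49.8 RPM. Aqp7, the glycerol channel of fat cells, was read at 0.166, 1.17 and 0.943 RPM in PBS and 0, 0.69 and 0 RPM in DT. Among 14 genes of fatty acid and triglyceride synthesis 0 passed, with Fasn at 0.09 ± 0.06, Acaca at 0.20 ± 0.12 and Srebf1 at 0.02 ± 0.05. In this list Thrsp, a lipogenic gene, stood at 12.4, 23.9 and 21.3 RPM in PBS and 11.3, 23.7 and 15.6 in DT. Among 8 further fat cell markers 0 passed, with Acsl1 at -0.16 ± 0.06, Trarg1 at -0.14 ± 0.07 and Cdo1 at 0.09 ± 0.08. Adig stood at 1.28, 2.50 and 2.20 RPM in PBS and 0.716, 2.76 and 1.20 in DT. Aqp7, Thrsp and Adig are among the 13 genes highest in PBS mouse 2, PBS mouse 3 and DT mouse 2. Among 6 genes of lipid and glucose uptake 0 passed, with Lpl at 0.04 ± 0.05, Cd36 at 0.07 ± 0.06 and Slc27a1 at -0.15 ± 0.09. Slc2a4, the insulin-driven glucose transporter of fat and muscle, stood at 24.2, 24.5 and 23.5 RPM in PBS and 9.84, 26.0 and 12.8 RPM in DT. It was low in DT mice 1 and 3 but not in PBS mouse 1. With all mice it did not pass (-0.65 ± 0.28, limma adjusted p = 0.552). The fit without DT mouse 2, a mouse singled out after the values were seen, gave -1.03 ± 0.12 (limma adjusted p = 0.0101). A p from such a choice of mouse is not support for a difference.

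The defining marker of brown fat was nearly absent. Ucp1, the uncoupling protein that defines brown fat, reached at most 0.266 RPM (DT mouse 2) and was at 0 in PBS mouse 1 and DT mouse 1. Of 12 brown fat genes, 8 were tested and 0 passed, with Prdm16 at 0.13 ± 0.06, Ppargc1a at 0.21 ± 0.20 and Dio2 at 0.16 ± 0.21. The other 5 tested had fitted differences below 0, from -0.22 ± 0.12 for Fabp3 to -0.63 ± 0.27 for Cpt1b, and the median of the list was -0.29. Without DT mouse 2, singled out after the values were seen, 1 of the 8 was past the threshold as lower in DT. It was Cpt1b, the fatty acid importer of muscle and brown fat mitochondria (-0.97 ± 0.15, limma adjusted p = 0.0336, against 0.541 with all mice). A p from such a choice of mouse is not support for a difference.

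Receptors of the secreted members did not pass either (0 of 6). The adiponectin receptors Adipor1 and Adipor2 differed by 0.03 ± 0.06 and 0.07 ± 0.05, and the leptin receptor Lepr by -0.07 ± 0.06. Factor D acts in the alternative complement pathway, where C3 and Cfb differed by -0.18 ± 0.07 and 0.20 ± 0.06 and did not pass. The resistin-like genes did not share the pattern of Retn. Retnla, which is known to be induced in hypoxic mouse lung, stood at 15.2, 14.1 and 13.2 RPM in PBS and 16.9, 15.9 and 15.7 RPM in DT (0.18 ± 0.09, adjusted p = 0.603), and Retnlg at 0.12 ± 0.14. Among 11 relatives of Cidea, Fabp4 and Car3, 0 passed, with Car8, Car2 and Car4 at -0.06 ± 0.06, 0.15 ± 0.06 and -0.05 ± 0.05. An unadjusted p under 0.05 (limma) was reached by 5 of the 11, against 9.03% of all tested genes. They went in both directions, with Car13 at 0.50 ± 0.09 (limma adjusted p = 0.097) and Fabp1 at -0.73 ± 0.17 (limma adjusted p = 0.243).

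Markers of other tissues were read beside the members as summed levels. The 10 members summed to 110.8, 221.2 and 170.5 RPM in PBS mice 1 to 3 and 81.1, 209.7 and 89.4 RPM in DT mice 1 to 3. The 8 cardiac muscle markers, as found in the muscle sleeve of mouse pulmonary veins, summed to 281.5, 292.2 and 320.9 RPM in PBS and 189.8, 340.9 and 192.7 RPM in DT. Both sums were high in DT mouse 2 and low in DT mice 1 and 3, but in PBS mouse 1 the cardiac sum was close to that of the other PBS mice and the adipocyte sum was not. Single cardiac markers differed in this. PBS mouse 2, PBS mouse 3 and DT mouse 2 were the 3 highest in 2 of the 8, Nppa and Ryr2. Ryr2 stood at 67.7, 79.9 and 106.9 RPM in PBS mice 1 to 3, while Myh6 stood at 121.4, 118.6 and 116.3 RPM. With all mice 0 of the 8 cardiac markers passed. Without DT mouse 2, singled out after the values were seen, 3 were past the threshold as lower in DT (Myh6, Ryr2 and Sln), while 0 of the 10 members were. Counts from such a choice of mouse are not support for a difference. Myh6, Ryr2 and Actc1 differed by -0.24 ± 0.09, -0.77 ± 0.50 and 0.04 ± 0.07 with all mice.

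The 8 skeletal muscle markers summed to 35.3, 31.7 and 38.0 RPM in PBS and 15.5, 34.0 and 14.9 RPM in DT. Most of these reads were those of Ckm, a creatine kinase that the heart also makes (-1.05 ± 0.39, limma adjusted p = 0.490). Without DT mouse 2, singled out after the values were seen, Ckm was at -1.59 ± 0.13 (limma adjusted p = 0.00479), which is not support for a difference. It stood at 26.0, 23.0 and 28.2 RPM in PBS and 7.28, 26.3 and 8.54 RPM in DT, while Tnnt3 and Tnni2 stayed under 4 RPM. Myh4, a defining gene of fast skeletal muscle, reached at most 0.107 RPM. The mesothelial sum was 183.7, 263.2 and 224.1 RPM in PBS and 300.7, 233.5 and 337.4 RPM in DT. In PBS it had the same order of mice as the members. Among DT mice, DT mouse 2 was the lowest in the mesothelial sum and the highest in the member sum. DT mouse 3 lay above DT mouse 1 in both sums. Of 8 mesothelial genes, 1 rose, Prg4, which encodes lubricin. It averaged 9.06 ± 0.739 RPM in PBS and 43.2 ± 19.8 in DT (2.03 ± 0.29 on the log2 scale, limma adjusted p = 0.0395). Its fold change stayed between 1.71 and 2.40 under the 12 alternatives, but the call held in 2 of them (a pseudocount of 0.1 and without DT mouse 2). The adjusted p ran from 0.00479 to 0.271, the latter without DT mouse 1. The part of these tissues in the members' spread was not tested.

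B cell markers summed to between 79.99 and 135.9 RPM in PBS and between 73.1 and 102.7 in DT, with PBS mouse 1 the lowest of its group, as it was for the members. Their genes highest in mean RPM, Fcer2a, Cd79a and Fcmr, differed by -0.11 ± 0.20, -0.37 ± 0.11 and 0.11 ± 0.25, and 0 of 8 passed. The 7 matched lymph node genes summed to 22.7 to 39.4 RPM in PBS and 22.9 to 34.5 in DT, most of it from Fcer2a, Cr2 and Cxcl13, which differed by -0.11 ± 0.20, -0.31 ± 0.35 and -0.10 ± 0.14. Fcer2a and Cr2 are also in the B cell list, and the stromal chemokine Ccl21a reached at most 0.499 RPM. The 7 matched thymus genes summed to 10.2 to 16.9 RPM in PBS and 12.8 to 17.8 in DT, mostly from the T cell genes Cd8b1 (-0.20 ± 0.16) and Themis (0.19 ± 0.26), while Rag2 was at 0 in all mice and Foxn1 in 5 of 6. Rag1 stood at 0 to 0.222 RPM in PBS and 0.596 to 1.47 RPM in DT (0.90 ± 0.20, limma adjusted p = 0.202). Classical dendritic cell markers summed to 129.0, 176.4 and 174.9 RPM in PBS and 116.1, 100.7 and 91.1 RPM in DT, and 0 of 6 passed (5 at an unadjusted p under 0.05), with Zbtb46 at -0.22 ± 0.07, Itgae at -1.21 ± 0.54 and Xcr1 at -1.88 ± 0.69. Without PBS mouse 1, a mouse noted after the values were seen, 1 of the 6 was past the threshold as lower in DT (limma). In that fit 10 of all tested genes were. Zbtb46 made up most of the summed level. The other 5 markers summed to 20.9, 76.6 and 85.8 RPM in PBS and 28.9, 18.7 and 7.02 RPM in DT, so that PBS mouse 1, the PBS mouse low in most members, lay within the DT range. DT mouse 2 lay between the other DT mice in both sums while the members were high.

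Capillary endothelial markers, from cells that also use Fabp4, summed to 654.5 to 693.5 RPM in PBS and 673.0 to 743.7 RPM in DT. Cdh5, Kdr and Aqp1 differed by 0.03 ± 0.05, 0.10 ± 0.05 and 0.03 ± 0.05. Lung epithelial markers summed to 342.8 to 361.4 and 353.4 to 393.5 RPM, lipofibroblast markers to 482.6 to 494.4 and 496.7 to 540.2 RPM, and adventitial fibroblast markers to 295.8 to 321.6 and 290.9 to 324.0 RPM. The lipofibroblast sums of the DT mice all lay above those of the PBS mice, and 0 of the 8 genes passed. Alveolar macrophage markers, a list that contains Cidec, summed to 143.4, 135.0 and 160.1 RPM in PBS and 160.4, 123.1 and 111.7 RPM in DT.

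**Figure D4:**
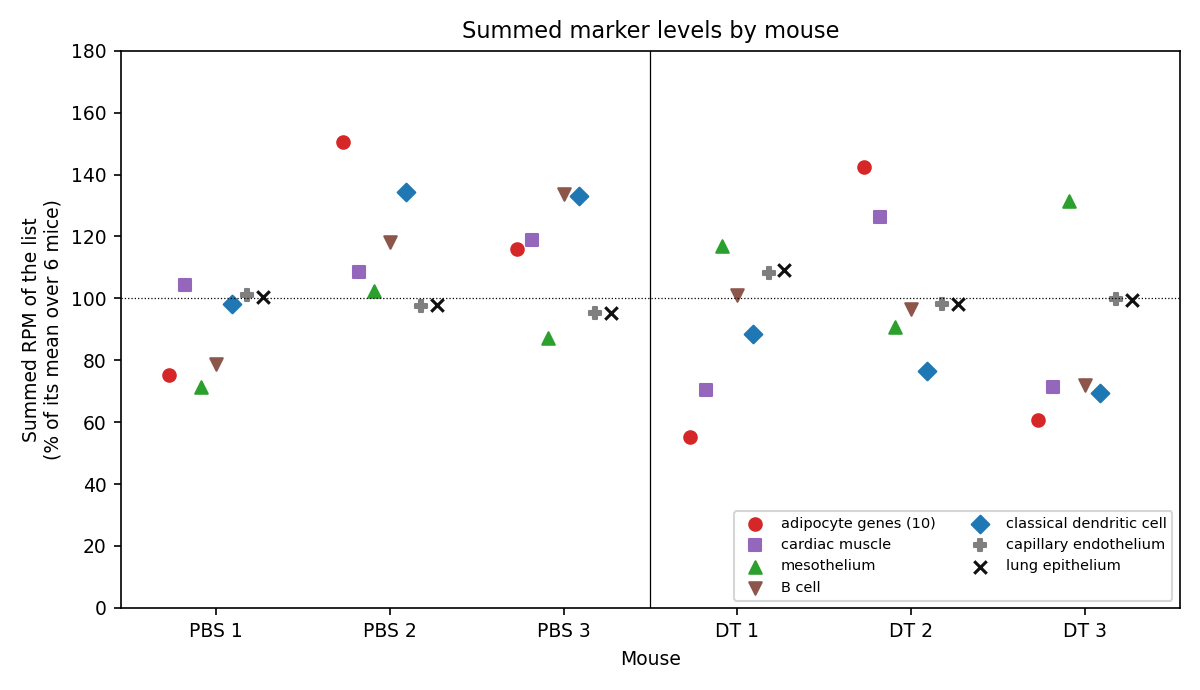
Summed RPM of each marker list in each mouse as a percentage of the mean of that list over the 6 mice (vertical axis, from 0). Symbols are lists, and the vertical line divides PBS from DT mice. The adipocyte sum runs from 81.1 to 221.2 RPM, lowest in DT mouse 1 and highest in PBS mouse 2, while the lowest endothelial sum is 88.0% and the lowest epithelial sum 87.1% of the highest.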

How the data were processed

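Whole-lung RNA of 6 mice (3 PBS, 3 DT, grouped by sample title) was sequenced after poly(A) selection with a kit named in the labels' protocols. The submitters' processing notes name FastQC, Trimmomatic and mm10. No aligner, counter or strand setting is given in the sources used here. Values per gene were deposited by the authors as log2 reads-per-million, with genes without reads at 0.9 of a read. On the linear scale 100% of the other values were whole multiples of 1 read at a tolerance of 0.1%, which gave depths and reads, and 69.8% to 73.1% of the total lay in listed genes. A count of 0 allows up to 3 reads (0.157 to 0.179 RPM), a limit for counting error only.

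Groups were compared on log2(RPM + 1) with limma 3.58.1 (R 4.3.3, eBayes with trend), 2-sided, Benjamini-Hochberg adjustment over 16708 genes with at least 0.538 RPM (10 reads at median depth) in 3 libraries and 15 reads in total. Fold changes on this scale understate those of low genes. The fit was tested on simulated data. The series' design text gives 3 mice per group. Members, lists and named genes were chosen with earlier results of these data known. The rule covered all members, genes past the threshold or the 3 highest in mean RPM per list, and the 10 genes nearest to Adipoq. Not every such gene is named, and 1 is not reported here. Sums and counts of a list leave out unmatched genes. Fdcsp and Ptcra, from the lymph node and thymus lists, were not matched. Transcript lengths come from GENCODE M21. Alternatives were 2 scalings, no filter, a pseudocount of 0.1, limma-voom, a replicate block and leaving out each mouse.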

Additional observations from a re-analysis of the deposited data

How the results depend on the processing

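For the members, 0 of 10 passed under each of the 12 alternatives, with adjusted p between 0.168 and 0.996. Of 120 recomputed fold changes 119 kept their direction, and that of Lep ran from -0.99 (without PBS mouse 1) to 0.055 (without PBS mouse 2). With each mouse left out, Adipoq ran from -2.07 (without DT mouse 2) to -0.61 (without DT mouse 1). Over all genes, 46 were higher and 1 was lower in DT. The count of lower genes was 0 under median-of-ratios scaling and 0 under upper-quartile scaling. With each mouse left out, higher genes ran from 0 (without DT mouse 1) to 56 (without PBS mouse 1) and lower genes from 0 to 90 (without DT mouse 2). Without PBS mouse 1 there were 10 lower genes, and without DT mouse 3 there were 14 higher and 0 lower.

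With the replicate block, 8 genes were higher and 0 lower, and 5 members had an unadjusted p under 0.05 in place of 0. Of the 16708 tested genes, 1638 had one under 0.05 with the block and 1509 without it. The mouse numbers share only a label. Deviations of same-numbered mice correlated at 0.084, 0.268 and -0.0996, and not every mouse correlated best with its own number. The cause of these shifts was not tested. With 3 mice per group and this spread, differences of the size seen for Adipoq were not resolved, and the few reads of Lep limit its values.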
